A study of Homo sapiens with 18 samples.

Results

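Total RNA of HEK293T cells, a human embryonic kidney line, was compared between cells that expressed YTHDF3 fused to an ADAR deaminase (YTHDF3-ADAR) and cells that expressed the same kind of fusion with YTHDF2 (YTHDF2-ADAR). The comparison took 3 libraries per line, 6 of the 18 in the series, and covered every gene: 26804 of 60675 gene rows had enough counts to test. The other 12 libraries were YTHDF1-ADAR total RNA and the polysome RNA of all 3 lines, and they are used below only to set values beside the members. All groups shared the parental cells, induction of the fusion with 1 µg/mL doxycycline for 24 h, 10 min of cycloheximide at 100 µg/mL, which holds ribosomes on mRNA, and removal of ribosomal RNA before sequencing. No library of cells without a fusion was analysed here, so a difference does not say which line moved. The labels do not say whether a line is 1 clone, or whether the 3 replicates were separate cultures, so the tests measure the spread between these libraries, which may be technical.

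YTHDF2 and YTHDF3 are cytoplasmic proteins that bind mRNAs carrying N6-methyladenosine (m6A) through a YTH domain. YTHDF2 is best known for recruiting the CCR4-NOT deadenylase and speeding decay of bound mRNAs, and YTHDF3 has been linked to both translation and decay. In the fusions the deaminase converts adenosines near the bound site to inosine, which is read as G, so that bound transcripts carry a mark.

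The 6 libraries held 43.3, 58.0 and 47.7 M counts in YTHDF2-ADAR and 54.2, 49.1 and 54.9 M in YTHDF3-ADAR replicates 1, 2 and 3. YTHDF3-ADAR replicate 1 stood apart from the other replicates of its line: on the first principal component, with 70.3% of the variance of the 2000 most variable genes, YTHDF2-ADAR libraries lay at -28.2, -56.7 and -34.9, YTHDF3-ADAR replicate 1 at 3.2, and replicates 2 and 3 at 58.8 and 57.8. Counts of called genes without it stand beside most of the gene lists below. YTHDF2 was at 276, 288 and 260 CPM (counts scaled to library size) in YTHDF2-ADAR against 147, 122 and 117 in YTHDF3-ADAR libraries, and YTHDF3 at 45.5, 56.05 and 52.2 against 87.5, 68.7 and 73.7, so both targeted genes were higher in every library of their own line. These counts do not separate the transgene from the endogenous gene. All 10 HEK293T markers were detected, 4 of them (NES, KRT8, KRT18 and PAX2) higher in YTHDF3-ADAR. Of 20 markers of other cell types 14 stayed under 1 CPM in all 6 libraries, PTPRC at 0.0572 CPM at most and CD3E at 0.0214. Their summed level was 12.7 to 21.3 CPM in YTHDF2-ADAR and 34.1 to 54.9 CPM in YTHDF3-ADAR, and COL1A1 (5.76 to 34.5 CPM, also in the matrix list below) and MBP (1.40 to 12.1 CPM) gave most of it. COL1A1, COL3A1 and GFAP were called higher, and the part of other cells in the results below was not tested.

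More genes were higher than lower in YTHDF3-ADAR cells. At an adjusted p under 0.05 (edgeR quasi-likelihood test, Benjamini-Hochberg), 4085 genes were higher, 15.2% of those tested, and 2028 were lower, 7.57%, together 22.8%. Of 15675 protein-coding genes 3137 were higher and 1352 lower (8.63%). A difference of at least 2-fold was seen in 1897 of the higher and 466 of the lower genes. Of the called genes, 66.8% were higher, a share that moved to 59% with other size factors, 57% with DESeq2, 55.1% when only protein-coding genes set the scale, and 92.2% when libraries were scaled to their totals alone. The last of these moved the median of all genes from a log2 difference of 0.02 to 0.2, so levels below are read against that median. In bulk RNA, fewer cells with a transcript and less of it per cell cannot be told apart.

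The count of calls depended on single libraries. Without YTHDF3-ADAR replicate 1 it was 6044 higher and 5283 lower of 27311 genes tested. Without replicate 2 of that line it was 1858 and 655 of 27454, and without replicate 3 it was 1951 and 624 of 27334. Leaving out a YTHDF2-ADAR library gave 3206 and 1492 (replicate 1), 2095 and 937 (replicate 2), and 2402 and 1023 (replicate 3). The background for list counts without a library, given below, therefore changed with the library left out. A core of 1663 higher genes (40.7%) and 519 lower genes (25.6%) was called whichever of the 6 libraries was left out, 1371 and 372 of them protein coding. Over the called higher genes, the median log2 difference of a YTHDF3-ADAR library from the YTHDF2-ADAR mean was 0.39 in replicate 1 and 1.14 and 1.11 in replicates 2 and 3. In the polysome libraries of the same numbers it was 0.37, 0.92 and 0.93. Polysome RNA of the 2 lines, sequenced in other libraries, had 3634 genes higher (13.6%) and 3093 lower (11.5%). Of the genes higher in total RNA 2868 (70.2%) were also higher on polysomes and 1 was lower, and of the lower genes 1332 (65.7%) were also lower and 0 higher. A test of whether the difference between lines differed between the fractions called 0 genes in edgeR, with 801 at an unadjusted p under 0.05.

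Some genes were close to silent in 1 line. MAP7D2, which encodes a microtubule-associated protein (ENSG00000184368, chrX:20006713-20116907), stood at 0.359, 0.307 and 0.495 CPM in YTHDF2-ADAR libraries and at 17, 25.5 and 24.4 CPM in YTHDF3-ADAR libraries. Every YTHDF3-ADAR library was far above every YTHDF2-ADAR library, a difference of 5.85 ± 0.24 (log2, ± SE, as in all that follow; adjusted p = 5.07e-10, edgeR), or 57.6-fold. OXCT1, the mitochondrial enzyme that lets cells use ketone bodies, was at 1.47, 0.653 and 0.966 CPM against 13.1, 15 and 15.7 CPM, 3.86 ± 0.25 higher (edgeR adjusted p = 1.57e-07). YTHDF1-ADAR cells averaged 12.7 CPM of OXCT1, so YTHDF2-ADAR was the line in which it was low. For MAP7D2 the YTHDF1-ADAR mean was 1.31 CPM, so there YTHDF3-ADAR was the line in which it was high.

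ADARB1, which encodes the deaminase ADAR2, was at 40.5, 38.6 and 37.5 CPM against 1079, 1638 and 1650 CPM, 5.23 ± 0.16 higher. ADAR, which encodes ADAR1, was at 307, 312 and 294 CPM against 316, 325 and 314 CPM and was not called. The authors' deposited editing tables list 4 sites in ADARB1 itself for YTHDF2-ADAR, at 12.7% editing per site, and 8 sites for YTHDF3-ADAR, at 95.2% per site. Reads of the ADAR part of a fusion are not separated from these genes, and their part in the ADARB1 difference was not tested.

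Other genes with large differences in all 3 libraries had roles in signalling, metabolism and transcription. ZNF462, a zinc finger protein, was at 1.85, 1.48 and 2.00 CPM in YTHDF2-ADAR and 17.4, 20.3 and 23.3 CPM in YTHDF3-ADAR. TGFBR2, the type II receptor for TGF-beta, was at 1.20, 1.08 and 0.895 CPM against 8.55, 13 and 12.8 CPM. NMNAT2, a neuronal enzyme of NAD synthesis, was at 1.35, 0.998 and 1.08 CPM against 7.65, 15.5 and 15.6 CPM. None of the 3 overlapped between lines, and the differences were 3.52 ± 0.20, 3.44 ± 0.21 and 3.51 ± 0.25 (edgeR adjusted p = 5.22e-08, 8.46e-08 and 3.30e-07). DECR1, an enzyme of unsaturated fatty acid oxidation, was 2.96 ± 0.22 higher. FOXO4, a forkhead transcription factor, rose from 18.8, 17.1 and 17.5 CPM to 74.2, 164 and 144 CPM, a difference of 2.84 ± 0.24. PRKCB, a protein kinase C, was 3.19 ± 0.58 higher. All of these kept their call whichever library was left out. Of the 13 tested genes of ketone and short-chain acyl metabolism 5 were higher and 1 lower, with a median of 0.29 against 0.02 over all genes. Without single libraries the list had between 2 and 8 higher genes, with the fewest without YTHDF3-ADAR replicate 3 and without YTHDF2-ADAR replicate 1.

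**Figure D1:**
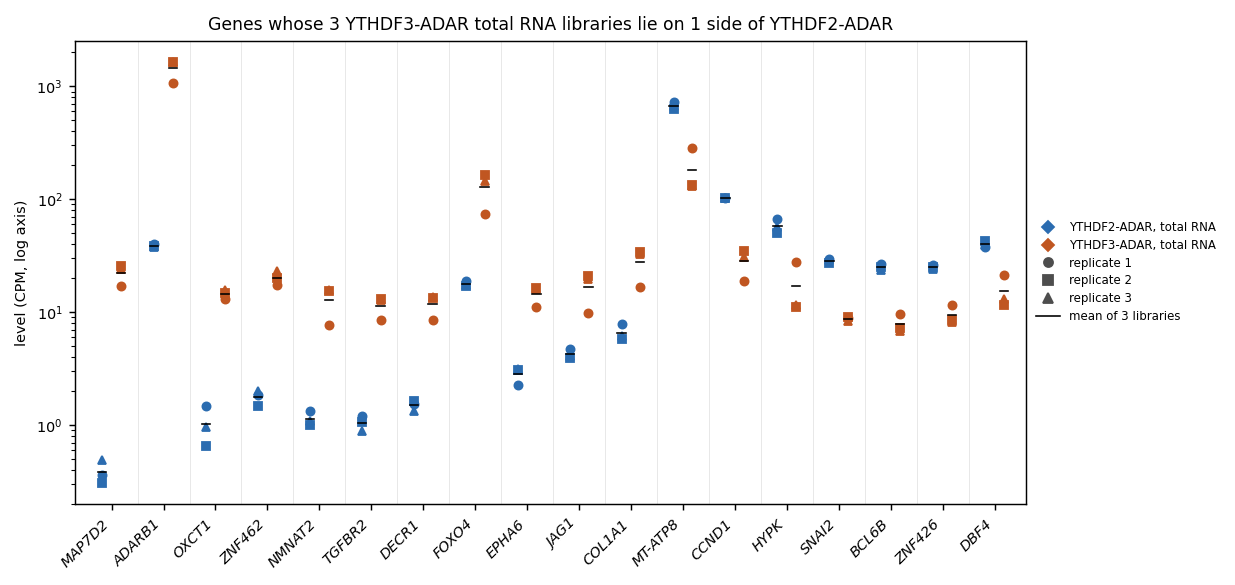
Level of 18 genes in each total RNA library, in CPM on a log axis, with points for libraries and bars for the mean of 3 libraries (YTHDF2-ADAR blue, YTHDF3-ADAR orange). For all 18, the 3 libraries of one line lie on one side of the 3 of the other, from MAP7D2 at 0.359, 0.307 and 0.495 against 17, 25.5 and 24.4 CPM to DBF4 at 38.2, 43.2 and 39.7 against 21.5, 11.6 and 13.2 CPM.

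Notch pathway genes were more often higher than the background. In this pathway a Delta or Jagged ligand on one cell binds a Notch receptor on its neighbour, which triggers cleavage of the receptor, and the released intracellular part joins RBPJ on the promoters of HES genes. Of 22 tested members 11 were higher and 0 lower, where 15.2% of all genes and 3137 of 15675 protein-coding genes were higher. The median of the members was 0.42 against 0.02 over all genes. HES5 and HES4, repressors that are targets of the pathway, are shown with their start-site windows because both hold the RBPJ motif GTGGGAA (or its complement TTCCCAC), marked in capitals. Each window runs from 250 bases before to 50 bases after the gene's start (RefSeq, GRCh38.p14, written 5′ to 3′ along the gene).
HES5 (chr1:2530214-2530513, - strand): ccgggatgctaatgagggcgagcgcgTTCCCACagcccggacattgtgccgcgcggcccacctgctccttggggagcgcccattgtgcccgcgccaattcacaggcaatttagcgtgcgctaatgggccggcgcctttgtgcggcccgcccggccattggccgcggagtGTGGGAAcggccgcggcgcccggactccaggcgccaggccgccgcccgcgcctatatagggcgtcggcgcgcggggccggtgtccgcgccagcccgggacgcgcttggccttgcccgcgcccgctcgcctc
HES4 (chr1:1000048-1000347, - strand): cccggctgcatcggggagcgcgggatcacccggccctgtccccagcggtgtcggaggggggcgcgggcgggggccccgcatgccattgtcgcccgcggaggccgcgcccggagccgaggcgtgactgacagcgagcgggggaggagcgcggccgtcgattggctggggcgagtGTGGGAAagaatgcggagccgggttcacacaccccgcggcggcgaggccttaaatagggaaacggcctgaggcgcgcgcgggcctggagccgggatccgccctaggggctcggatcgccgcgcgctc
The HES5 window has 2 matches, the first starting 224 bases before the start site, and the HES4 window has 1. The motif occurs in 6.28% of 27305 such windows, and those of NRARP, JAG1, DLL4 and NOTCH3 hold none of these letters.

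HES5 was at 1.80, 0.595 and 0.966 CPM in YTHDF2-ADAR and 4.37, 15.9 and 16.3 CPM in YTHDF3-ADAR libraries. All YTHDF3-ADAR libraries were higher, replicate 1 least, and the difference was 3.48 ± 0.52 (edgeR adjusted p = 4.71e-04). ENSG00000272449, an unnamed noncoding RNA that overlaps HES5 on the opposite strand, was 2.97 ± 0.52 higher, and no source used here gives the strand setting of the counting, so reads of the pair may not be separated. HES4 averaged 51.7 ± 8.18 CPM (SD, n = 3) and 108 ± 37.3 CPM, a difference of 1.06 ± 0.26. JAG1, a Notch ligand, was at 4.70, 3.93 and 4.12 CPM against 9.77, 20.9 and 19.6 CPM, 1.98 ± 0.28 higher. NOTCH3, a receptor, was at 38.7, 31.3 and 32.1 CPM against 34.5, 145 and 145 CPM, so replicate 1 lay within the YTHDF2-ADAR range and replicates 2 and 3 far above it. Its difference of 1.67 ± 0.41 lost its call without YTHDF3-ADAR replicate 2 or 3 (1.40 in both cases). DLL4, another ligand, was 1.14 ± 0.33 higher and kept its call only without YTHDF3-ADAR replicate 1 (1.40). The list had 15 higher and 1 lower member without YTHDF3-ADAR replicate 1, 6 and 5 higher members without replicate 2 and 3 of that line, 7 without YTHDF2-ADAR replicate 2, and 9 or 10 without either of the other 2.

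Genes of the extracellular matrix and its receptors were higher in the same direction. Of 50 tested, 20 were higher and 0 lower, with a median of 0.77. COL1A1, a chain of fibrillar collagen, was at 7.84, 5.76 and 6.20 CPM in YTHDF2-ADAR and 16.8, 34.5 and 32.9 CPM in YTHDF3-ADAR, 2.09 ± 0.24 higher (edgeR adjusted p = 3.99e-05). HSPG2, the basement membrane proteoglycan perlecan, was at 18.7, 14.4 and 16.2 CPM against 19.4, 89.7 and 95.5 CPM. MMP2, a matrix metalloproteinase, was at 2.24, 1.40 and 1.41 CPM against 1.44, 9.19 and 9.16 CPM. COL1A1 was separated in all 3 libraries, whereas for HSPG2 replicate 1 only just exceeded the highest YTHDF2-ADAR library and for MMP2 it lay within their range. HSPG2 (2.05 ± 0.53) was not called without YTHDF3-ADAR replicate 2 or 3 or YTHDF2-ADAR replicate 2 (1.73 to 1.96). MMP2 (1.98 ± 0.57) lost its call in the same 3 cases and without YTHDF2-ADAR replicate 3 (1.66 to 1.87). MRC2, a collagen-binding endocytic receptor outside the list, was at 6.94, 5.20 and 6.34 CPM against 8.86, 58.3 and 58.1 CPM, 2.76 ± 0.61 higher. The matrix list had 33 higher genes without YTHDF3-ADAR replicate 1, 13 and 11 without replicates 2 and 3 of that line, 13 without YTHDF2-ADAR replicate 2, and 0 lower in each case. Its median in single YTHDF3-ADAR libraries was 0.08, 0.87 and 1.01 above the YTHDF2-ADAR mean.

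Axon guidance ligands and receptors had 26 of 64 tested genes higher and 1 lower, with a median of 0.41. EPHA6, an ephrin receptor, was at 2.27, 3.11 and 3.16 CPM in YTHDF2-ADAR and 11.1, 16.4 and 16 CPM in YTHDF3-ADAR, 2.34 ± 0.24 higher in non-overlapping libraries (edgeR adjusted p = 1.37e-05). SEMA6B, a semaphorin, was 2.38 ± 0.55 higher, from 5.36, 3.55 and 4.76 CPM to 5.81, 33.5 and 31.7 CPM. SLIT3, a secreted guidance ligand, was 2.03 ± 0.40 and UNC5A, a netrin receptor, 1.88 ± 0.43 higher. The number of higher genes was 36 without YTHDF3-ADAR replicate 1, 13 without replicate 2 or 3 of that line, and 13 without YTHDF2-ADAR replicate 2.

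Wnt pathway genes had 13 of 49 members higher and 1 lower, with a median of 0.33. SFRP1, a secreted Wnt antagonist, was at 0.898, 0.748 and 0.754 CPM against 3.44, 6.57 and 6.13 CPM, 2.75 ± 0.22 higher (edgeR adjusted p = 7.80e-07). The ligand WNT7B was 1.91 ± 0.38 higher, and NOTUM, an extracellular enzyme that inactivates Wnt proteins, 2.17 ± 0.60. NOTUM lost its call without YTHDF3-ADAR replicate 2 or 3 or YTHDF2-ADAR replicate 2 or 3 (1.86 to 2.15), and the list fell to 5 higher genes in each of these cases. Without YTHDF3-ADAR replicate 1 it had 22 higher and 3 lower genes. TGF-beta pathway genes had 5 of 30 higher and 1 lower, near the background, with a median of -0.08. Beside TGFBR2 the receptor ACVR2B was higher, at 122, 138 and 134 CPM against 194, 220 and 236 CPM (0.72 ± 0.11). The list had 10 higher and 5 lower genes without YTHDF3-ADAR replicate 1, and 2 higher without replicate 2 or 3 of that line or YTHDF2-ADAR replicate 2.

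HEK293T cells are known to express neuronal genes. Of 29 synaptic and secretory genes 7 were higher and 0 lower, with a median of 0.69, and of 17 neurofilament and cytoskeleton genes 5 were higher and 1 lower, with a median of 0.40, where 3137 of 15675 protein-coding genes were higher. ENO2, the neuronal enolase, was at 11.9, 4.66 and 9.52 CPM against 20.8, 34.2 and 34.2 CPM, 1.78 ± 0.38 higher. VAMP2, a vesicle SNARE, was at 30.6, 24.8 and 31.2 CPM against 40.5, 67.5 and 64.4 CPM, 0.99 ± 0.20 higher. MAPT, which encodes tau, was at 9.97, 10.2 and 11.1 CPM against 12.7, 38.7 and 38 CPM, 1.51 ± 0.32 higher. In all 3 genes the libraries of the lines did not overlap, and replicate 1 was the lowest of its line. Without YTHDF2-ADAR replicate 2 the synaptic list had 4 higher genes, and without YTHDF3-ADAR replicate 2 or 3 the cytoskeleton list had 2. Without YTHDF3-ADAR replicate 1 the synaptic list had 6 higher and 1 lower genes and the cytoskeleton list 7 and 1. DPYSL3, a cytoskeletal protein of growth cones, was lower by 0.84 ± 0.16. Among HEK293T markers NES, an intermediate filament of neural progenitors, was at 1.38, 1.13 and 1.18 CPM against 2.75, 8.22 and 8.72 CPM. The neurofilament markers NEFL and NEFM were not called. NEFL was at 125.1, 120.5 and 135.2 CPM against 94.99, 150.9 and 150.3 CPM. NEFM was at 295.1, 315.4 and 353.9 CPM against 116.1, 412.9 and 404.6 CPM. In both, YTHDF3-ADAR replicate 1 was below every YTHDF2-ADAR library, and replicates 2 and 3 were above every one.

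**Figure D2:**
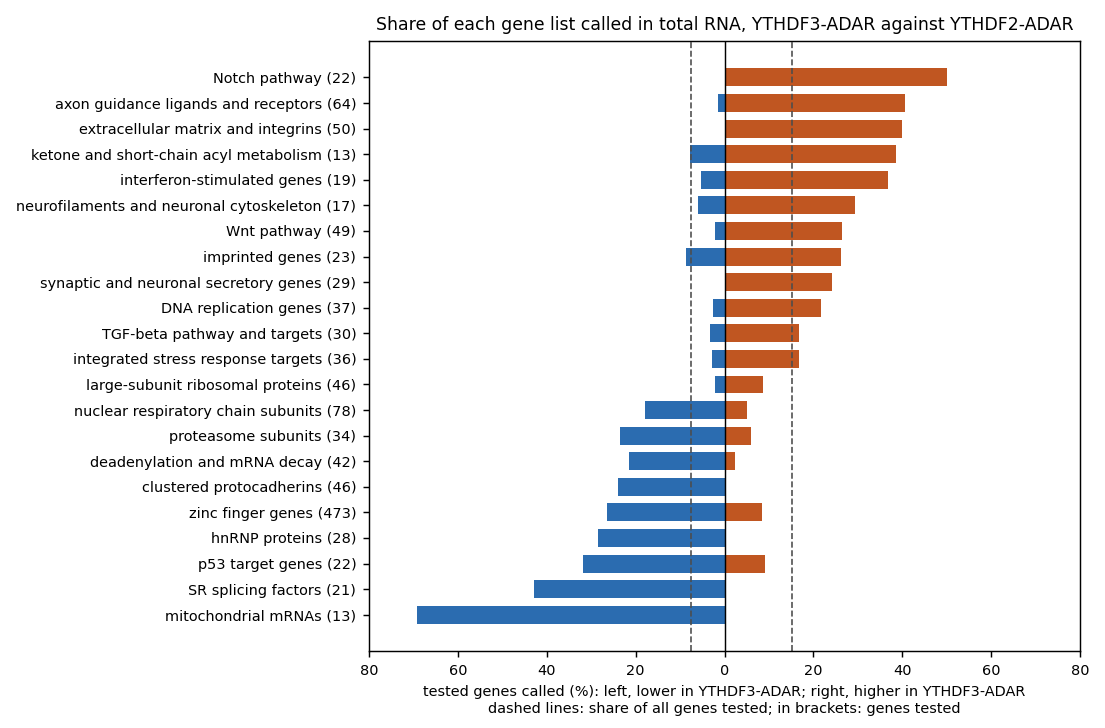
Share of the tested genes of 22 lists called higher (right) or lower (left) in YTHDF3-ADAR, in percent, with dashed lines at the shares over all genes, 15.2% and 7.57%. For lists of protein-coding genes these lines lie below the matching background. Among protein-coding genes 3137 of 15675 were higher and 1352 (8.63%) lower, so a bar just past a line is not an excess. Notch pathway genes (11 of 22) have the longest bar to the right and mitochondrial mRNAs (9 of 13) the longest to the left.

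Several targets of the integrated stress response were high in replicates 2 and 3 of YTHDF3-ADAR and not in replicate 1. In this response, phosphorylation of eIF2 alpha favours translation of the transcription factor ATF4, which binds C/EBP-ATF response elements in genes of amino acid synthesis and stress. Of 36 tested targets 6 were higher and 1 lower, 6 being close to the background of 15.2%, while the median was 0.49. PCK2, mitochondrial phosphoenolpyruvate carboxykinase, was at 14.6, 14.7 and 17 CPM in YTHDF2-ADAR and 10.3, 111 and 111 CPM in YTHDF3-ADAR. CHAC1, which degrades glutathione, was at 4.19, 4.99 and 6.13 CPM against 3.24, 33.5 and 30.4 CPM, and NUPR1, a stress-induced nuclear protein, at 0.209, 0.365 and 0.353 CPM against 0.182, 3.94 and 4.43 CPM. In these genes replicate 1 was below all YTHDF2-ADAR libraries and the others were several-fold above them. The polysome libraries had the same order, with PCK2 at 13.5, 17.4 and 17.9 CPM against 13.2, 115 and 104 CPM.

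The CHAC1 window is shown because it holds the element TGATGNAA (complement TTNCATCA), in capitals, 209 bases before the start site.
CHAC1 (chr15:40953221-40953520, + strand): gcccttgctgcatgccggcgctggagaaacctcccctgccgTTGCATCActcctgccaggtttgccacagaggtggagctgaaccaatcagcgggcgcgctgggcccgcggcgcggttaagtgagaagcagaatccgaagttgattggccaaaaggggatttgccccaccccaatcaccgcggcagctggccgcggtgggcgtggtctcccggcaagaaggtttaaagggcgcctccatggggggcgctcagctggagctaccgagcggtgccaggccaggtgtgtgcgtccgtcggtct
The element occurs in 3.67% of the windows, and those of TRIB3, PCK2, PHGDH and SARS1 hold none. PCK2 (2.33 ± 0.69), CHAC1 (2.13 ± 0.74) and NUPR1 (3.16 ± 0.94) kept their call only when YTHDF3-ADAR replicate 1 was left out (2.81, 2.61 and 3.68). Without any other library the differences were 1.97 to 2.40, 1.72 to 2.28 and 2.69 to 3.30 with no call. TRIB3, a pseudokinase induced by ATF4, was the exception, at 10.4, 10.9 and 12.1 CPM against 17.9, 39.2 and 38.2 CPM, with no overlap and a call in every case (1.51 ± 0.24, edgeR adjusted p = 6.10e-04). PHGDH, the first enzyme of serine synthesis, averaged 282 ± 4.53 CPM against 548 ± 200 CPM (SD, n = 3), and SARS1, seryl-tRNA synthetase, 144 ± 1.13 against 259 ± 94.0 CPM. INHBE, an activin subunit, followed the same order as PCK2, at 0.658, 0.902 and 1.15 CPM against 0.474, 12.6 and 12.1 CPM. The stress list had 21 higher genes without YTHDF3-ADAR replicate 1, 2 without replicate 2 or 3 of that line, and 3 without any YTHDF2-ADAR library. Its median in single YTHDF3-ADAR libraries was -0.30, 0.75 and 0.78.

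Other genes were also much higher in replicates 2 and 3 of YTHDF3-ADAR than in replicate 1. CRABP2, a retinoic acid carrier, was at 5.45, 4.66 and 4.48 CPM in YTHDF2-ADAR and 9.95, 71.6 and 73.0 CPM in YTHDF3-ADAR, and APOE, the lipid carrier apolipoprotein E, at 3.83, 3.74 and 3.34 CPM against 7.80, 49.1 and 50.1 CPM. G0S2, an inhibitor of lipolysis, was at 1.11, 0.806 and 1.04 CPM against 1.95, 17.4 and 19.5 CPM. For these genes replicate 1 was above every YTHDF2-ADAR library by a smaller margin, and the calls held whichever library was left out, at 3.41 ± 0.63, 3.29 ± 0.59 and 3.73 ± 0.78. IGF2, an imprinted growth factor, was at 7.45, 10.2 and 10.8 CPM against 6.69, 67.2 and 48.8 CPM (2.11 ± 0.62), called otherwise only without YTHDF3-ADAR replicate 1 (2.57). Its row overlaps INS-IGF2 on the same strand, so shared reads are uncertain. Of 23 imprinted genes 6 were higher and 2 lower, with a median of 0.88, where 15.2% of all genes were higher and 7.57% lower. Without YTHDF3-ADAR replicate 1, 8 were higher and 3 lower. Without replicate 2 or 3 of that line or YTHDF2-ADAR replicate 2, 2 were higher.

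**Figure D3:**
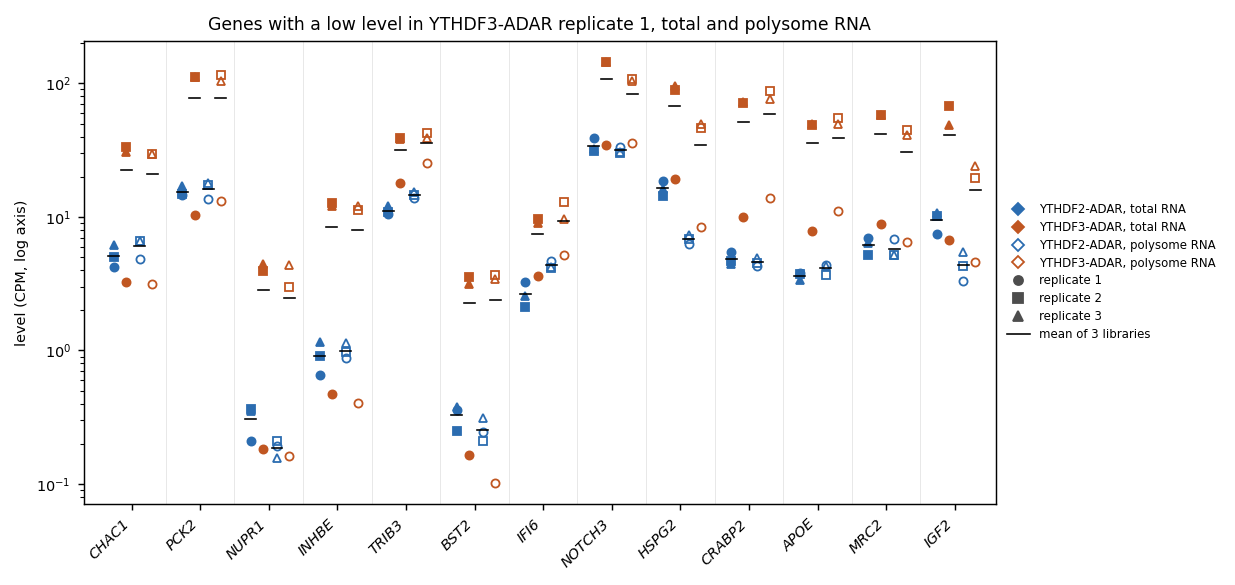
Level of 13 genes in total RNA (filled) and polysome RNA (open) of both lines, in CPM on a log axis, with points for libraries and bars for the mean of 3 libraries. The circles of YTHDF3-ADAR replicate 1 lie near the YTHDF2-ADAR libraries in both fractions, as for CHAC1 at 3.24 CPM against 33.5 and 30.4 CPM in replicates 2 and 3 of total RNA.

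Interferon-stimulated genes had 7 of 19 tested members higher and 1 lower, with a median of 0.38, most of them at low levels. They are switched on by STAT complexes bound to the interferon-stimulated response element, and RNA editing enzymes are known to affect sensing of the duplex RNA that induces them. The windows of IFIT1 and BST2 are shown because each holds 2 matches to this element, searched on both strands as GAAA, any 2 bases and GAAA, in capitals, the 2 in BST2 overlapping.
IFIT1 (chr10:89392373-89392672, + strand): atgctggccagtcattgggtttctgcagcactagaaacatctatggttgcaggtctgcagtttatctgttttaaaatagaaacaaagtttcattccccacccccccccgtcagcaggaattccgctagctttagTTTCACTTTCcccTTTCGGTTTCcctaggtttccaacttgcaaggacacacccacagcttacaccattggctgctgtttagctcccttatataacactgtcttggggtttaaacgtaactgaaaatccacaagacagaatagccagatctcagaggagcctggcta
BST2 (chr19:17405581-17405880, - strand): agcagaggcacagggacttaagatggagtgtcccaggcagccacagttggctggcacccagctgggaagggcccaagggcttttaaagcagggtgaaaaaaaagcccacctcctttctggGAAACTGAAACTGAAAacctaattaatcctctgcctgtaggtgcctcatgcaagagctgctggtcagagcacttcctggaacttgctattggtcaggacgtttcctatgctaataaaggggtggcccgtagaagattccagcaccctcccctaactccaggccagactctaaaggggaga
The element occurs in 3.65% of all windows and was also found in those of IFIT3, IFI6, IFI44L and IFIH1. IFI6, an interferon-induced mitochondrial protein, was at 3.23, 2.13 and 2.54 CPM in YTHDF2-ADAR and 3.63, 9.64 and 9.05 CPM in YTHDF3-ADAR, 1.50 ± 0.33 higher with a call in every case. BST2, the membrane protein tetherin, was at 0.359, 0.249 and 0.377 CPM against 0.164, 3.53 and 3.15 CPM, with replicate 1 below all YTHDF2-ADAR libraries. IFIT1, which binds foreign RNA ends, was at 0.838, 0.748 and 0.636 CPM against 1.22, 1.74 and 2.27 CPM. BST2 (2.80 ± 0.96) was otherwise called only without YTHDF3-ADAR replicate 1 (3.32), and IFIT1 (1.23 ± 0.34) was not called without replicate 2 or 3 of either line (1.00 to 1.25). USP18, which removes ISG15 from proteins, averaged 11.6 ± 0.684 against 21.5 ± 1.50 CPM. ISG20, an exonuclease, was the lower member, by 1.22 ± 0.28. The list had 3 higher members without YTHDF3-ADAR replicate 2 or 3 or without YTHDF2-ADAR replicate 1 or 3, and 2 without YTHDF2-ADAR replicate 2. Without YTHDF3-ADAR replicate 1 it had 8 higher and 2 lower members. Of 13 sensors of such RNA 2 were higher and 1 lower, and MAVS, the adaptor of the RIG-I-like sensors, was at 91.8, 86.3 and 82.5 CPM against 137, 171 and 166 CPM (0.86 ± 0.11).

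Cell cycle genes differed gene by gene. CCND1, cyclin D1, which activates the kinases of the G1 phase, was at 104, 103 and 103 CPM in YTHDF2-ADAR and 18.9, 34.7 and 31.1 CPM in YTHDF3-ADAR. It was lower by 1.87 ± 0.19 (edgeR adjusted p = 1.20e-05) in every library, and stood at 15.5, 14 and 16.5 CPM in YTHDF1-ADAR cells. Its row overlaps LTO1, so shared reads are uncertain. E2F2, a transcription factor of S phase entry, was 0.97 ± 0.15 higher, at 35.6, 33.9 and 32.4 CPM against 46.1, 77.9 and 75.6 CPM. Of 37 DNA replication genes 8 were higher and 1 lower, with a median of 0.06. CDC45, a subunit of the replicative helicase, was 0.61 ± 0.10 higher with no overlap. CDT1, which loads that helicase, was at 123, 108 and 113 CPM against 114, 278 and 281 CPM, and its difference of 0.97 ± 0.23 lost its call without YTHDF3-ADAR replicate 2 or 3 (0.78 in both). DBF4, the activator of the replication kinase CDC7, was lower by 1.39 ± 0.17, from 38.2, 43.2 and 39.7 CPM to 21.5, 11.6 and 13.2 CPM. The replication list had 11 higher genes without YTHDF3-ADAR replicate 1 3 without replicate 2 or 3 of that line, and 4 without YTHDF2-ADAR replicate 2 or 3.

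Of 22 p53 target genes 7 were lower and 2 higher, where 7.57% of all genes were lower, with a median of -0.20. HEK293T cells carry SV40 large T antigen, which binds p53. AEN, a nuclease of apoptosis, was at 166, 147 and 148 CPM against 92.9, 83.7 and 80.2 CPM, lower by 0.84 ± 0.12 (edgeR adjusted p = 3.00e-04). TIGAR, a regulator of glycolysis, was lower by 0.80 ± 0.18, and MDM2, the ligase that degrades p53, averaged 225 ± 7.98 against 138 ± 28.7 CPM. Replicate 1 did not stand closer to YTHDF2-ADAR here: the list's median was -0.51 in replicate 1 and -0.05 and 0.01 in the others. The list had 5 or 6 lower members whichever library was left out, with 6 higher members without YTHDF3-ADAR replicate 1, and 4 lower and 3 higher with libraries scaled to their totals. SNAI2, a transcription factor of epithelial-mesenchymal transition, was at 29.9, 27.3 and 28.7 CPM against 8.82, 9.01 and 8.41 CPM, lower by 1.71 ± 0.12, with replicate 1 level with the other YTHDF3-ADAR libraries. BCL6B, a transcriptional repressor, was lower by 1.67 ± 0.17.

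Genes for RNA-binding proteins of splicing were lower or not called. Of 21 tested SR proteins and their kinases 9 were lower and 0 higher, with a median of -0.44, and of 28 hnRNP proteins 8 were lower and 0 higher, with a median of -0.37. Over protein-coding genes 8.63% were lower. SRSF11, an SR protein, was at 149, 205 and 192 CPM in YTHDF2-ADAR and 154, 85.5 and 106 CPM in YTHDF3-ADAR. HNRNPU, a nuclear scaffold protein, was at 1157, 1300 and 1249 CPM against 1088, 621 and 617 CPM, and HNRNPA2B1, which has been described as a reader of m6A, at 1149, 1085 and 1132 CPM against 903, 615 and 560 CPM. Replicate 1 overlapped YTHDF2-ADAR for SRSF11 and lay below it in the other 2 genes. The differences were -0.66 ± 0.18, -0.67 ± 0.19 and -0.70 ± 0.17, and the calls were lost without YTHDF3-ADAR replicate 2 or 3 for all 3, and without YTHDF2-ADAR replicate 2 or 3 for the first 2 (-0.49 to -0.66 over these cases). The SR list had 19 lower genes without YTHDF3-ADAR replicate 1, 0 and 1 without replicates 2 and 3 of that line, and 4, 1 and 2 without YTHDF2-ADAR replicates 1, 2 and 3. The hnRNP list had 22, then 2 and 2, then 5, 4 and 4. With libraries scaled to their totals, 0 SR genes and 2 hnRNP genes were lower, at medians of -0.24 and -0.17 against 0.2 over all genes.

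Proteins that decay or modify mRNA showed smaller differences. Of 42 genes of deadenylation and decay 9 were lower and 1 higher (median -0.22), and of 17 nonsense-mediated decay factors 4 were lower and 0 higher (median -0.34). Over protein-coding genes 8.63% were lower. CNOT4, a ubiquitin ligase of the CCR4-NOT complex, was at 37.4, 40.1 and 37.0 CPM against 30.9, 24.8 and 25.7 CPM, lower by 0.49 ± 0.11. Without single libraries the decay list had 17 lower genes (YTHDF3-ADAR replicate 1), 1 (replicate 2 or 3 of that line) or 3 (any YTHDF2-ADAR replicate), and the nonsense-mediated decay list 8, 1, and 1 or 2. With libraries scaled to their totals, which raises all genes, the decay list had 8 higher and 0 lower genes and its median of -0.03 stayed below the 0.2 of all genes. Among 14 writers and erasers of m6A, WTAP, the scaffold of the methyltransferase complex, was at 137, 136 and 126 CPM against 98.7, 70.7 and 70.8 CPM, lower by 0.73 ± 0.13 (edgeR adjusted p = 0.00130). CBLL1, another subunit of that complex, was lower by 0.54 ± 0.10 and METTL5, which methylates 18S ribosomal RNA, by 0.39 ± 0.09. ZCCHC4, which methylates 28S ribosomal RNA, was higher by 0.49 ± 0.10. These 4 kept their call whichever library was left out, and the other 10 of the list were not called. The list had 3 higher and 6 lower members without YTHDF3-ADAR replicate 1, and 4 higher and 1 lower with libraries scaled to their totals. Of 14 readers the called ones were YTHDF2, HNRNPA2B1 and YTHDC1, all lower, and YTHDF3. YTHDC1, a nuclear reader (-0.53), was otherwise called only without YTHDF3-ADAR replicate 1 (-0.86; -0.55 to -0.39 without any other library). The reader list had 7 lower members without YTHDF3-ADAR replicate 1 and 1 without replicate 2 or 3 of that line.

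Chaperones and the proteasome were lower more often than the background. Of 19 heat shock proteins, with mitochondrial HSPE1 in a list otherwise meant as cytosolic, 4 were lower and 1 higher (median -0.47). Of 23 endoplasmic reticulum folding genes 6 were lower and 2 higher (median -0.31), and of 34 proteasome subunits 8 and 2 (median -0.16). HSPE1, the mitochondrial chaperonin HSP10, was at 211, 197 and 193 CPM against 111, 66.0 and 64.0 CPM, lower by 1.32 ± 0.18. The readthrough row HSPE1-MOB4 overlaps HSPE1 and was lower by 1.50 ± 0.19, so the split of reads between the pair is uncertain. CANX, calnexin, which folds glycoproteins, was at 705, 832 and 785 CPM against 509, 466 and 471 CPM, lower by 0.68 ± 0.14, and PSMB1, a core proteasome subunit, was lower by 0.51 ± 0.08. HYPK, a chaperone of the ribosome-bound N-terminal acetyltransferase, was at 67.2, 50.7 and 56.6 CPM against 28.0, 11.2 and 11.6 CPM, lower by 1.78 ± 0.27. The HYPK row overlaps SERF2 on the same strand, so shared reads are uncertain. HSPB1, a small heat shock protein, went the other way, by 1.04 ± 0.26, and lost its call without YTHDF3-ADAR replicate 2 or 3 or YTHDF2-ADAR replicate 2 (0.86 to 0.94). Without YTHDF3-ADAR replicate 1 the 3 lists had 12, 14 and 13 lower genes, without replicate 2 of that line 1, 2 and 2, and without replicate 3 1, 3 and 2. Without YTHDF2-ADAR replicates 1, 2 and 3 they had 2, 2 and 2 lower heat shock genes, 5, 3 and 4 lower folding genes, and 3, 3 and 5 lower proteasome genes. With libraries scaled to their totals 1 gene of each list was lower and 1, 2 and 5 were higher, and the medians of -0.28, -0.12 and 0.04 stayed below the 0.2 of all genes.

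RNA from the mitochondrial genome was lower in YTHDF3-ADAR. Of 13 mitochondrial mRNAs 9 were lower and 0 higher, with a median of -1.03. MT-ATP8, a subunit of ATP synthase, was at 727, 630 and 672 CPM in YTHDF2-ADAR and 284, 133 and 132 CPM in YTHDF3-ADAR, lower by 1.89 ± 0.34 (edgeR adjusted p = 0.00166). MT-ND2, a subunit of complex I, was at 1502, 1205 and 1224 CPM against 596, 322 and 338 CPM, lower by 1.65 ± 0.35. In both genes replicate 1 was intermediate and no library overlapped. The MT-ATP8 row overlaps MT-ATP6 on the same strand, so shared reads are uncertain. The median of the mitochondrial mRNAs was -1.05 on polysomes, where 11 were lower. Without single libraries 5 to 9 of the 13 were lower, with 5 without YTHDF3-ADAR replicate 2 or 3 and 6 without any YTHDF2-ADAR library or with libraries scaled to their totals. Of 78 respiratory chain subunits encoded in the nucleus 14 were lower and 4 higher, with a median of -0.09, and NDUFS6, a complex I subunit, was lower by 0.94 ± 0.17. Of 78 mitochondrial ribosomal proteins 12 were lower and 6 higher, with a median of -0.16, and MRPL10 and MRPL45, both encoded on chromosome 17, were higher by 1.02 ± 0.16 and 0.90 ± 0.11. With libraries scaled to their totals these 2 lists had 4 lower and 13 higher, and 1 lower and 12 higher genes, and their medians of 0.11 and 0.03 stayed below the 0.2 of all genes. Lower genes numbered 17 and 22 with other size factors, 23 and 23 with protein-coding totals, and 23 and 24 with DESeq2. Without YTHDF3-ADAR replicate 1 the lists had 22 and 27 lower genes. Without YTHDF3-ADAR replicate 2 they had 6 and 2 lower genes, without replicate 3 of that line 5 and 2, and without YTHDF2-ADAR replicates 1, 2 and 3 they had 5, 9 and 7, and 5, 2 and 5.

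Ribosomal RNA took a smaller share of the counts in YTHDF3-ADAR. All libraries had ribosomal RNA removed, and the part of that step in these shares was not tested. Mitochondrial ribosomal RNA took 2.63%, 2.04% and 2.21% of the counts in YTHDF2-ADAR and 0.428%, 0.281% and 0.311% in YTHDF3-ADAR. Rows of class rRNA took 1.55%, 0.929% and 0.835% against 0.0643%, 0.0451% and 0.212%. In addition, 4 unnamed noncoding rows of chromosome 21 with large falls, chosen after their values were seen (ENSG00000280800, ENSG00000280614, ENSG00000281181 and ENSG00000281383) took 11.4%, 6.52% and 6.55% against 0.360%, 0.600% and 1.02%. None of these 3 shares overlapped between lines. The first and second each gave an exact two-sided permutation p of 0.1, the smallest that 3 against 3 allows (0.133 adjusted over 12 classes). Nuclear protein-coding genes took 63.1% ± 4.40 of counts in YTHDF2-ADAR and 71.1% ± 1.71 in YTHDF3-ADAR (SD, n = 3). MTRNR2L12 and MTRNR2L8, nuclear copies of the mitochondrial MT-RNR2, were lower by 2.61 ± 0.41 and 2.36 ± 0.48, and MT-RNR2 itself differed by -2.697 ± 0.47, so their reads cannot be assigned to 1 locus. On polysomes MT-RNR2 differed by -0.18 and MT-RNR1 by -0.41 with no call.

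Few ribosomal protein mRNAs were called in total RNA. Of 46 large-subunit genes 4 were higher and 1 lower, with a median of 0.12, and of 32 small-subunit genes 1 and 1, with a median of 0.07. RPL3 was at 1137, 1032 and 1063 CPM against 1111, 2147 and 2060 CPM, 0.72 ± 0.19 higher, and RPS26 was lower by 0.71 ± 0.19. RPL3 overlapped between lines through replicate 1 and lost its call without YTHDF3-ADAR or YTHDF2-ADAR replicate 2 or 3 (0.56 to 0.71). RPS26 lost its call without YTHDF3-ADAR replicate 2 or 3 or YTHDF2-ADAR replicate 1 (-0.64 to -0.69). The large-subunit list had 10 higher genes without YTHDF3-ADAR replicate 1, 12 with libraries scaled to their totals, and 0 without replicate 2 or 3 of either line. Its median was -0.25 in YTHDF3-ADAR replicate 1 and 0.30 and 0.27 in the others. On polysomes the medians of the 2 lists were -0.57 and -0.67, with 30 and 26 genes lower, and the difference between fractions was called for 0 genes. Reads of ribosomal protein genes can also come from their processed copies. EIF3D and EIF3L, subunits of initiation factor eIF3 on chromosome 22, were higher by 0.88 ± 0.15 and 0.88 ± 0.20, with EIF3D at 171, 167 and 170 CPM against 218, 359 and 356 CPM. Of 36 initiation factors 6 were higher and 5 lower, with 9 and 10 without YTHDF3-ADAR replicate 1, 4 and 1 without replicate 2 of that line, 3 and 1 without replicate 3, and 4 and 2 without any YTHDF2-ADAR library.

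By median, small nuclear and nucleolar RNAs were lower in replicates 2 and 3 of YTHDF3-ADAR. Of 265 small nucleolar and Cajal body RNAs 34 were lower and 1 higher, with a median of -0.52, and of 41 spliceosomal RNAs 7 were lower and 0 higher, with a median of -0.85. In replicate 1 these medians were -0.06 and -0.02 from the YTHDF2-ADAR mean, against -0.70 and -1.49 in replicate 2 and -0.82 and -1.61 in replicate 3. The summed shares of counts overlapped between lines. Rows of class snRNA took 1.76%, 1.49% and 1.50% in YTHDF2-ADAR and 2.63%, 1.48% and 1.28% in YTHDF3-ADAR. Small nucleolar and Cajal body RNAs took 0.134%, 0.121% and 0.1325% against 0.210%, 0.125% and 0.112%. In both shares YTHDF3-ADAR replicate 1 was the highest library. SNORD17, a box C/D RNA, was at 15.6, 12.5 and 12.9 CPM against 8.46, 4.88 and 4.62 CPM, lower by 1.19 ± 0.21, and SCARNA16, the higher member, was at 20.02, 17.3 and 15.2 CPM against 44.7, 40.6 and 33.3 CPM (1.18 ± 0.16). Lower members numbered 125 and 32 without YTHDF3-ADAR replicate 1, 9 and 0 without replicate 2, and 7 and 0 without replicate 3. Without YTHDF2-ADAR replicates 1, 2 and 3 they numbered 22, 11 and 12 in the first list and 1, 4 and 4 in the second. Of the long nuclear RNAs MALAT1, of nuclear speckles, was at 550, 961 and 877 CPM against 459, 302 and 448 CPM, lower by 0.98 ± 0.24, and NEAT1, the core of paraspeckles, at 25.1, 29.6 and 29.3 CPM against 34.6, 79.4 and 83.0 CPM, higher by 1.23 ± 0.33. MALAT1 lost its call without replicate 2 of either line (-0.81 and -0.82), and NEAT1 without YTHDF3-ADAR replicate 2 or 3 (1.07 and 1.03). GAS5, a host gene of nucleolar RNAs, was at 128, 124 and 123 CPM against 145, 312 and 310 CPM, 1.03 ± 0.23 higher.

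**Figure D4:**
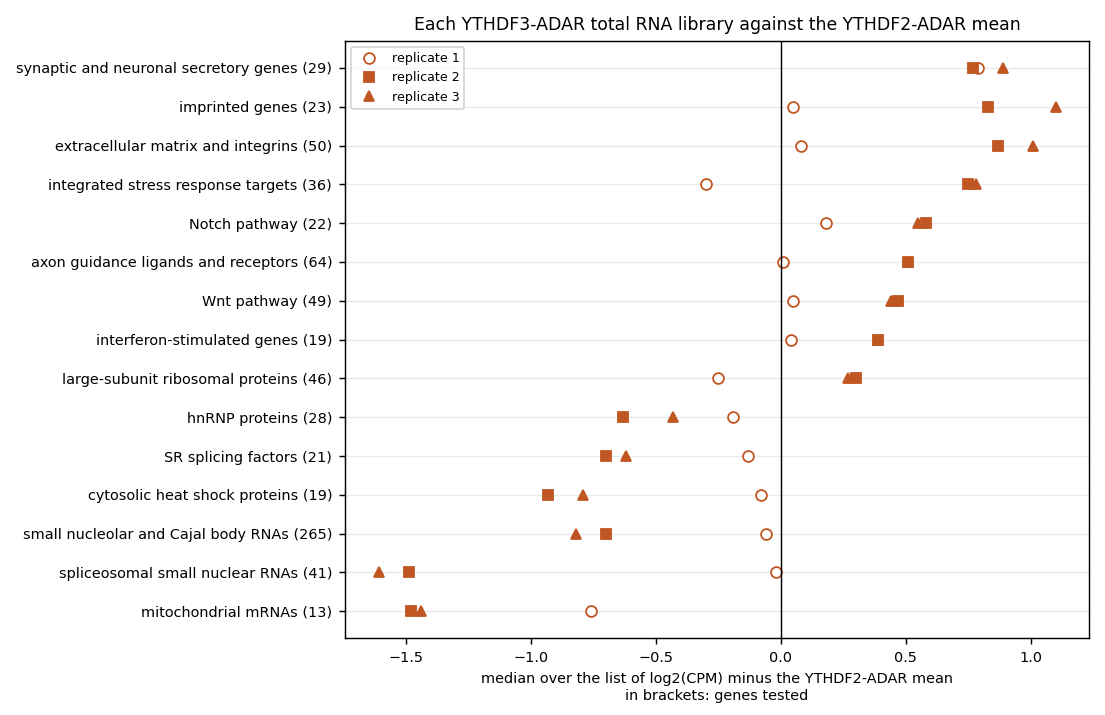
Median log2 difference of each YTHDF3-ADAR total RNA library from the YTHDF2-ADAR mean, over the tested genes of 15 lists, with an open circle for replicate 1, squares for replicate 2 and triangles for replicate 3. Replicate 1 lies near 0 or on the other side for most lists (-0.30 against 0.75 and 0.78 for stress response targets), and with the others for synaptic genes (0.79 against 0.77 and 0.89).

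Zinc finger genes, many of which encode KRAB repressors and lie in clusters on chromosome 19, split by position. Of 473 tested 125 were lower and 40 higher, with a median of -0.29. Between 20 and 25 Mb of chromosome 19, 11 of 20 were higher and 0 lower, with a median of 0.92, while elsewhere on the chromosome 84 of 200 were lower and 4 higher, with a median of -0.50. On the other chromosomes 41 of 253 were lower and 25 higher, with a median of -0.15. The stretch from 20 to 25 Mb was chosen after its values were seen. The filter on counts used all groups, so genes near silent in YTHDF2-ADAR could enter through other groups, which favours higher members. Among all protein-coding genes with a mean of at least 1 CPM between 20 and 30 Mb, 9 of 23 were higher and 0 lower. Their median was -0.13. ZNF492 was at 0.0299, 0.0384 and 0.236 CPM against 4.19, 1.63 and 2.44 CPM, ZNF66 at 0.150, 0.153 and 0.165 CPM against 3.86, 1.35 and 1.62 CPM, and ZNF726 at 0.329, 0.115 and 0.212 CPM against 2.50, 2.65 and 2.63 CPM. In ZNF492 and ZNF66 replicate 1 was the highest YTHDF3-ADAR library. ZNF426, on chromosome 19, was at 26.3, 25 and 24.1 CPM against 11.6, 8.48 and 8.28 CPM, lower by 1.41 ± 0.13 (edgeR adjusted p = 3.34e-06). Members of this family are similar in sequence, and no source used here says how shared reads were counted. Without YTHDF3-ADAR replicate 1 the whole family had 233 lower and 63 higher genes, without replicate 2 or 3 of that line 51 and 27 or 46 and 25, without YTHDF2-ADAR replicate 2 65 and 25, and with libraries scaled to their totals 50 and 76, at a median of -0.11 against 0.2 over all genes.

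Clustered protocadherins, cell-surface adhesion proteins of neurons, had 11 of 46 members lower and 0 higher, with a median of -0.61. PCDHGA11 was at 9.22, 6.64 and 8.43 CPM against 4.54, 3.51 and 4.56 CPM, lower by 0.94 ± 0.19. Members of the gamma cluster share exons, so their counts are not independent. The list had 25 lower members without YTHDF3-ADAR replicate 1, 22 without YTHDF2-ADAR replicate 2, 4 or 5 without any other library, 5 with libraries scaled to their totals, 22 with other size factors, 23 with protein-coding totals and 25 with DESeq2. Of 38 HOX genes, which set position along the body axis, 7 were higher, near the background of 15.2%, and 1 lower. Without YTHDF3-ADAR replicate 1, 5 were higher and 7 lower, where 6044 and 5283 of all 27311 genes tested were. HOXC12 was higher by 2.23 ± 0.38. Of 56 replication-dependent histone genes 6 were higher and 9 lower, H3C6 by 1.52 ± 0.15 and H1-3 by -0.78 ± 0.16, and 8 were higher and 7 lower with libraries scaled to their totals. Without YTHDF3-ADAR replicate 1 the counts were also 6 and 9.

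The calls were unevenly spread over the chromosomes. Among 13638 protein-coding genes with a mean of at least 1 CPM, 20.3% were higher and 9.36% lower, with a median of 0.02. On chromosome 22, 188 of 338 genes (55.6%) were higher and 2 (0.592%) lower, and the median was 0.41. It was 0.31, 0.49 and 0.42 above the YTHDF2-ADAR mean in YTHDF3-ADAR replicates 1, 2 and 3 and 0.24 on polysomes. An exact two-sided permutation test over the 6 libraries gave p = 0.1, the smallest it allows. Chromosome 22 was picked after its values were seen, and the same test gave 0.1 for chromosome 8 too, at a median of -0.06. In YTHDF1-ADAR total RNA the chromosome 22 genes lay 0.12, 0.10 and -0.01 from the YTHDF2-ADAR mean. Chromosomes 17 (33.9% higher), 1 (30.7%) and 3 (30.5%) followed. EIF3D, EIF3L, RPL3, CDC45, USP18 and WNT7B, given above, lie on chromosome 22.

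Within chromosomes the higher genes lay in stretches, which were picked after their values were seen and have no test. On chromosome 17, 249 of 552 genes below 50 Mb (45.1%) were higher, with a median of 0.33, against 37 of 291 genes (12.7%) beyond it, with a median of -0.09. On chromosome 3, 170 of 356 genes below 70 Mb (47.8%) were higher, with a median of 0.31, against a median of -0.09 between 120 and 200 Mb. Replicate 1 did not stand apart here, with medians of 0.25, 0.37 and 0.34 on the first stretch of chromosome 17 and 0.30, 0.35 and 0.31 on that of chromosome 3. Below 10 Mb of chromosome 20, 42 of 64 genes (65.6%) were higher, with a median of 0.49. In YTHDF1-ADAR cells these genes were also 0.63, 0.59 and 0.53 above YTHDF2-ADAR, so there YTHDF2-ADAR was the line that differed. Between 10 and 30 Mb of chromosome 20 the median was -0.26, and between 50 and 60 Mb of chromosome 19 it was -0.33 with 32.3% of 164 genes lower. YTHDF1-ADAR libraries lay -0.33, -0.32 and -0.46 from the YTHDF2-ADAR mean on the former stretch and -0.19, -0.12 and -0.21 on the latter. The median difference of YTHDF3-ADAR from YTHDF1-ADAR was 0 and -0.02. On the chromosome 19 stretch YTHDF3-ADAR replicate 1 was at -0.10 and replicates 2 and 3 at -0.40 and -0.46. Over 240 bins of 10 Mb with at least 20 genes the median ranged from -0.52 to 0.54. In the bin below 10 Mb of chromosome 1, which holds HES5 and HES4, 48 of 96 genes were higher and 0 lower, with a median of 0.33. TGFBR2 and ACVR2B, also given above, lie below 70 Mb of chromosome 3. DNA copy number was not measured.

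**Figure D5:**
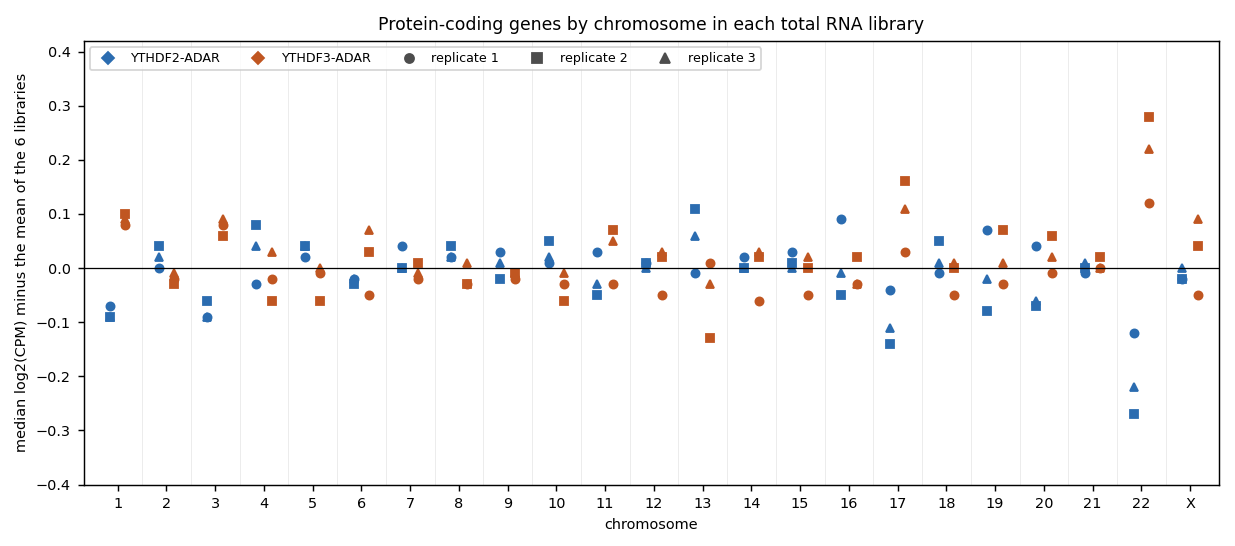
Median over protein-coding genes of each chromosome of the log2 level minus the mean of the 6 libraries, for YTHDF2-ADAR (blue) and YTHDF3-ADAR (orange) total RNA, with a symbol per replicate. Chromosome 22 has the widest gap between the lines (median difference 0.41), followed by 17, 1 and 3, with no overlap of libraries.

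Edited transcripts were compared with the rest by level. The authors' deposited tables list 4547 genes with 21499 sites for YTHDF2-ADAR and 7042 genes with 50789 sites for YTHDF3-ADAR. Of 13638 protein-coding genes with a mean of at least 1 CPM, the 4118 listed for both had 16.1% higher and 9.59% lower, with a median of -0.02. The 309 listed for YTHDF2-ADAR alone had 10.7% higher and 20.4% lower, with a median of -0.16. The 2713 listed for YTHDF3-ADAR alone had 20.5% higher and 9.07% lower, with a median of 0, near the background of 20.3% and 9.36%. A site is more readily found where a transcript has more reads in that line, and the part of this in the shares was not tested. Among the genes described above, MAVS had 1 site for YTHDF2-ADAR and 14 for YTHDF3-ADAR, at 3.96% and 2.87% editing per site, and WTAP 1 and 9 sites, at 1.85% and 1.28%. HNRNPU had 3 and 9 sites at 4.29% and 0.892% per site, in the authors' deposited tables, which give 1 value per line and no error.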

How the data were processed

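Raw gene counts of 18 libraries were deposited by the authors, per the submitters' processing notes with the aligner STAR 2.7.7, the counter featureCounts 2.0.1, DESeq2 and the build GRCh38. No source used here gives the annotation release or the strand setting. Other named genes, such as ENO2 and TIGAR, also overlap a gene on the same strand, so their shared reads are uncertain too. The libraries came from a directional kit after ribosomal RNA removal, per the labels' protocols. The normalised signal (mean of scaled counts) in the authors' DESeq2 table served only for gene symbols and classes. The editing score in the authors' deposited tables is summed over the sites of a gene and was divided here by the number of sites.

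Counts of all 18 libraries (6 groups) were fitted with edgeR 4.0.16 in R 4.3.3: filterByExpr (minimum count 10), TMM factors, robust quasi-likelihood test of YTHDF3-ADAR minus YTHDF2-ADAR total RNA, Benjamini-Hochberg adjustment over 26804 genes, threshold 0.05. The SE is the log2 difference over the root of F. The 6 libraries compared held 43.3 to 58.0 M counts, and CPM values used these totals scaled by the TMM factors. Alternatives were other size factors, no filter, DESeq2 1.42.0, fewer libraries in the fit, a replicate block and leaving out each library. On simulated data for this comparison (26804 genes) the fit recovered 38.8% of 1.5-fold, 65.7% of 2-fold and 90.9% of 4-fold changes, with 2 false among 132 calls. The simulation changed few genes, none at the lowest levels, and had no library set apart as YTHDF3-ADAR replicate 1 was. Its rates may therefore not hold for the measured libraries. Replicate pairs differed beyond counting noise.

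Members and lists were chosen with earlier results of these data known, and no list was tested. Named genes were the fusion genes, the 15 highest and 15 lowest protein-coding genes (mean CPM of at least 5, groups not overlapping), 5 each way of other classes, 5 each way by CPM difference, up to 4 called members of each of 51 lists (mean CPM of at least 1) and cell type markers. HES4, PHGDH, SARS1, USP18 and MDM2, which that rule does not name, the genes whose start-site windows were searched, and the chromosome stretches were picked after values were seen. 1 row that names no human gene was left out.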

Additional observations from a re-analysis of the deposited data

Results flagged for a closer look

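A row of the count table that names no human gene had more than 3 counts, the limit that a count of 0 allows, in 4 of 18 libraries. It held 8 counts in YTHDF3-ADAR total RNA replicate 1, 5 in replicate 2 of that group, 7 in YTHDF3-ADAR polysome replicate 3 and 6 in YTHDF1-ADAR polysome replicate 1. The row was left out of library sizes and tests.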

How the results depend on the processing

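Against 4085 higher and 2028 lower genes, the count was 6589 and 558 with libraries scaled to their totals, 4096 and 3092 with DESeq2, and 1163 and 333 when only the 6 libraries compared entered the fit. Other size factors, protein-coding totals, no filter on low counts and the 9 total RNA libraries kept both counts within 1.5 times. Leaving out single libraries gave 1858 to 6044 higher and 624 to 5283 lower genes. With the replicate number as a block the count was 4 and 3 over the 6 libraries and 2039 and 892 over the 9 total RNA libraries. Deviations of same-numbered libraries from the means of their lines had correlations of -0.17, -0.17 and 0.03. With 3 libraries per line the deviations are not independent, so these values cannot decide whether the numbers pair the libraries. The cause of these changes was not tested.

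Of 209 named genes called, 0 changed direction, 203 lost their call under at least 1 alternative and 6 kept it under all. ADAR, which was not called (0.07), was at -0.01 with protein-coding totals. Depth limits levels under 1 CPM, such as those of ZNF492 in YTHDF2-ADAR.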
